A study of Mus musculus with 36 samples.

Results

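The sites compared here are the places in the dorsal hippocampus of ethanol-treated control mice where peaks of H3K9ac, H3K27ac or both were called by chromatin immunoprecipitation and sequencing. H3K9ac and H3K27ac are acetylated forms of histone H3, each named for the lysine that carries the acetyl group. The members are all peaks of these 2 lists on assembled chromosomes, joined into sites wherever an H3K9ac and an H3K27ac peak share at least 1 base. This gave 87160 sites: 2586 with H3K9ac alone (2.97%), 22998 with both marks (26.4%) and 61576 with H3K27ac alone (70.6%). Across all 8 lists of the study, overlapping peaks merged into 152548 regions.

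The mice were males of 8 weeks or older that had received a control or a knockdown vector by injection into the brain. The ethanol-treated control mice are called control in the sample labels and WT in the list names, and received ethanol into the peritoneum (a 20% solution, 2 g per kg). The 3 other conditions were ethanol-treated mice with a vector carrying a short hairpin RNA against Acss2, untreated mice with that vector, and untreated control mice. The labels describe the knockdown vector, an AAV2/9 with the hairpin under a U6 promoter and EGFP under a CMV promoter, but not the control vector, and give no time between ethanol and dissection. Each mark in each condition has 3 replicates, about 20 mg of tissue per mouse, and 1 deposited list that stands for all of them. A different antibody was used for each mark. With 1 list per mark there is no replicate error and no test, and the 95% Wilson intervals on shares cover counting error only. The read depth behind the lists is unknown, so part of any difference between the lists may come from depth or antibody, which cannot be told apart here from acetylation.

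Histone acetyltransferases attach acetyl groups taken from acetyl-CoA to lysines in the tails of histones. KAT2A and KAT2B are the main writers of H3K9ac, and CREBBP and EP300 are the main writers of H3K27ac. H3K9ac is known chiefly from active promoters, while H3K27ac marks active promoters and active enhancers, which may lie far from the genes they regulate. Ethanol is oxidised to acetate, and the enzyme ACSS2 converts acetate to acetyl-CoA in the nucleus of neurons.

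The promoter windows of 6 genes illustrate the classes. They were chosen after their values were seen: the ribosomal and the presynaptic gene with the most H3K9ac-covered bases among those with a sequence, and, per single mark, the 2 genes with the highest peak score among those with no base of the other mark within 2 kb of the gene ends and an annotated start with that mark alone within 1 kb. Sequences are from RefSeq (GRCm38.p6), 250 bases before to 50 after the transcription start, 5′ to 3′, with each CpG dinucleotide in capitals. Rps18, a protein of the small ribosomal subunit, and Bsn (bassoon), a scaffold of the presynaptic active zone, carried both marks.
Rps18 promoter, chr17:33955616-33955915, minus strand: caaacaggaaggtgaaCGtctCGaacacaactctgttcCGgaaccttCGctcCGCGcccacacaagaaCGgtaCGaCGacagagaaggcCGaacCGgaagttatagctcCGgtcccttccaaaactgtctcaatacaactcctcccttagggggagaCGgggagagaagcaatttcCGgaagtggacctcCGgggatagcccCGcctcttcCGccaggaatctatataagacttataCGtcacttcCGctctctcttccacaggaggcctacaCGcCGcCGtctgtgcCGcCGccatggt
Bsn promoter, chr9:108190334-108190633, minus strand: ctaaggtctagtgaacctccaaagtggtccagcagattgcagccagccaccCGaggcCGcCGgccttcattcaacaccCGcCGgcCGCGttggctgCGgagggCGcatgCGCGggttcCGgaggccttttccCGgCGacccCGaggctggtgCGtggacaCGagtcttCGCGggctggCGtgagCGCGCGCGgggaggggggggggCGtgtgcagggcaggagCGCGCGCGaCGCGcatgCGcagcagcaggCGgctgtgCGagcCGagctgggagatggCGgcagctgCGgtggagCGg
Psd4, an exchange factor for a small GTPase, and Ube2t, a ubiquitin-conjugating enzyme of DNA crosslink repair, carried H3K9ac and no H3K27ac.
Psd4 promoter, chr2:24367425-24367724, plus strand: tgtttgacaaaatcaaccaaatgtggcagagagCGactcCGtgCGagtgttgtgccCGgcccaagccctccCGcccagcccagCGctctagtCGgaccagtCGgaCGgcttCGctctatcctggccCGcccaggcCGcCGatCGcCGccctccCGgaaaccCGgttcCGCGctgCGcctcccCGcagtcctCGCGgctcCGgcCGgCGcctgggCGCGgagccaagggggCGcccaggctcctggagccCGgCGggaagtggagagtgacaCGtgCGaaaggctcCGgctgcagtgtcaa
Ube2t promoter, chr1:134962315-134962614, plus strand: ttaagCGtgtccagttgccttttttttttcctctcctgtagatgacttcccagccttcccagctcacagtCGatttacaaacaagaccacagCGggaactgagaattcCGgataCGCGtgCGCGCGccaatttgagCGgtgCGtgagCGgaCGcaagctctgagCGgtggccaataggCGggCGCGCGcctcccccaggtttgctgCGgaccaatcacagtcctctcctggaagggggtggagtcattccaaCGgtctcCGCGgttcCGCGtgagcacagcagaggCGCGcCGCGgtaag
N6amt1, a methyltransferase that modifies a translation release factor, and Ccdc114, a docking protein of motile cilia, carried H3K27ac and no H3K9ac.
N6amt1 promoter, chr16:87353935-87354234, plus strand: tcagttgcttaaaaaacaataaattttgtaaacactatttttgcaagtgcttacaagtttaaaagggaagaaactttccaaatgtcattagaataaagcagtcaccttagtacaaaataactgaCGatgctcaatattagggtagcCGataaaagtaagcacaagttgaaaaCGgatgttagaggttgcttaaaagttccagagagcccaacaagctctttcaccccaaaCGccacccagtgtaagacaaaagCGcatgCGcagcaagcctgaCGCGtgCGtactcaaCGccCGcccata
Ccdc114 promoter, chr7:45923965-45924264, plus strand: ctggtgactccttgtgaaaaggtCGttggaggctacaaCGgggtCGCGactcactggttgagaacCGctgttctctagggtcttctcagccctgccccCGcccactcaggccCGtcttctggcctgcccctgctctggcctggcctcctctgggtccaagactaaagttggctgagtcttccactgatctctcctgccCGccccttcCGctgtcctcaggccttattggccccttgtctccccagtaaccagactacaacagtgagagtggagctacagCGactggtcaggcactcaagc
The windows of Rps18 and Bsn held 24 and 38 CpG, those of Psd4 and Ube2t held 34 and 28, and those of N6amt1 and Ccdc114 held 11 and 10. The peaks lie partly or wholly beside these windows. Of each 300-base window H3K9ac peaks covered 91 bases in Rps18, 216 in Psd4 and none in the others, and H3K27ac peaks covered 110 in Rps18, 197 in Bsn, 31 in N6amt1, 265 in Ccdc114 and none in Psd4 and Ube2t. The letters CCGGAAGT, recognised by ETS factors, occurred 2 times in Rps18 and in none of the other 5 windows. The letters GCATGCGC, part of the site of NRF1, occurred 4 times in Bsn and 2 times in N6amt1, both strands counted. Each match lay in a stretch that reads the same on both strands, so each place was counted 2 times. There were thus 2 such places in Bsn and 1 in N6amt1.

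The 3 classes differed in width, in place and in distance from genes. Sites with H3K9ac alone had a median width of 176 bp, sites with both marks 790.5 bp and sites with H3K27ac alone 220 bp. A site with both marks joins several peaks, which widens it by construction. The single peaks within these sites had median widths of 420 bp for H3K9ac and 684 bp for H3K27ac. Of them, 3693 of 28456 H3K9ac peaks and 7155 of 24534 H3K27ac peaks reached 1 kb. None of the 2586 H3K9ac-alone sites reached 1 kb, which allows a share of up to 0.148% by the Wilson interval, against 36.1% of sites with both marks and 1.76% of H3K27ac-alone sites. The midpoint lay within 1 kb of an end of a protein-coding gene in 21.3% of H3K9ac-alone sites (interval 19.8 to 23.0%), 59.4% of sites with both marks (58.8 to 60.1%) and 9.21% of H3K27ac-alone sites (8.99 to 9.45%). The median distance to the nearest gene end was 2179.5 bp for H3K9ac alone, 654 bp for both marks and 15577 bp for H3K27ac alone. Sites more than 50 kb from every gene end made up 9.28%, 5.73% and 22.1% of the classes in the same order. The single-mark sites were mostly inside genes, with 61.8% of H3K9ac-alone and 66.5% of H3K27ac-alone sites there, against 29.5% of sites with both marks.

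**Figure D1:**
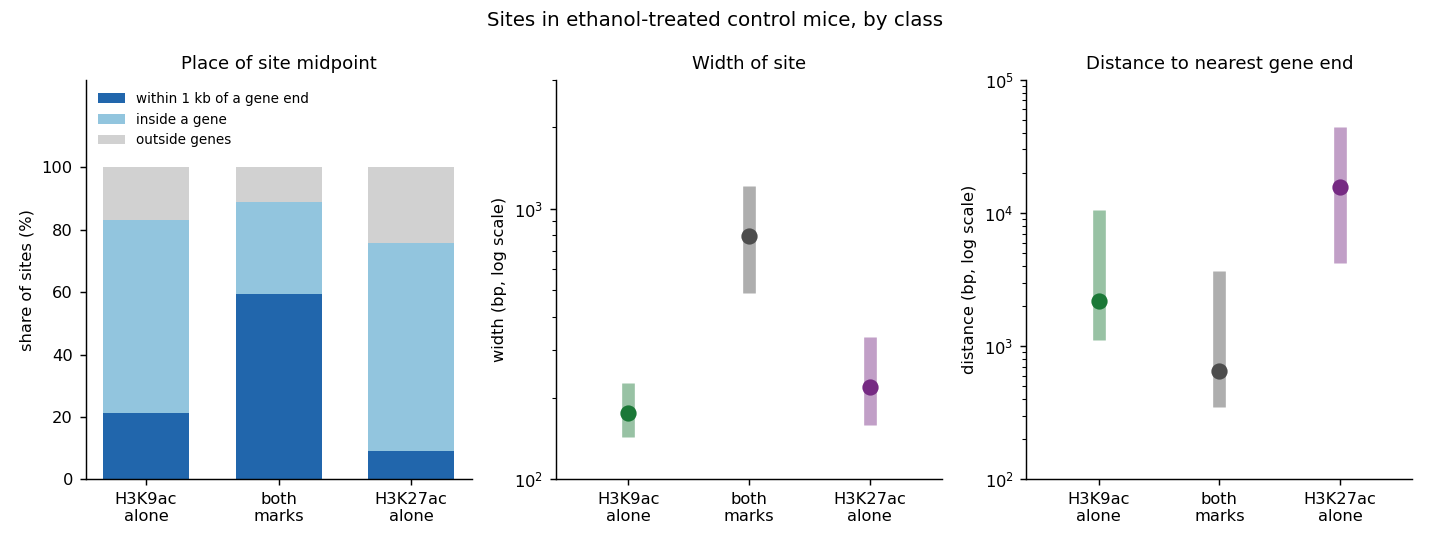
Place of the site midpoint (% of sites), site width (bp, log scale) and distance to the nearest end of a protein-coding gene (bp, log scale) for the 3 classes; dots are medians and bars in the middle and right panels run from the first to the third quartile. Sites with both marks are the widest class (median 790.5 bp) and the closest to gene ends (median 654 bp), and H3K27ac-alone sites lie farthest out (median 15577 bp).

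H3K9ac was largely nested within H3K27ac. Of the 31042 H3K9ac peaks, 91.7% overlapped an H3K27ac peak, and of the 86110 H3K27ac peaks, 28.5% overlapped an H3K9ac peak. By bases, 88.6% of the 16.1 Mb under H3K9ac peaks lay inside H3K27ac peaks, and 37.4% of the 38.1 Mb under H3K27ac peaks lay inside H3K9ac peaks. Among the overlapping peaks, 53.8% of H3K9ac peaks lay wholly inside H3K27ac, and 9.54% of H3K27ac peaks lay wholly inside H3K9ac. A single peak of each mark made up 76.4% of the sites with both marks, and 17.2% held several H3K9ac peaks under 1 H3K27ac peak. The reverse arrangement, 1 H3K9ac peak over several H3K27ac peaks, accounted for 4.44%.

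Overlap depended on peak score, which the authors gave each peak and which ranks peaks within a list. In the lowest decile of H3K9ac peaks by score 74.3% overlapped H3K27ac, and in the highest decile 99.9% did. For H3K27ac peaks the share that overlapped H3K9ac was 3.96% in the lowest decile, 39.2% in decile 8, 81.7% in decile 9 and 99.5% in the highest. Nearly all of the strongest peaks of either mark therefore belonged to sites with both marks. Of the H3K9ac-alone peaks 4.10% had a score higher than the H3K9ac median, and of the H3K27ac-alone peaks 33.2% exceeded the H3K27ac median. Of the H3K9ac-alone peaks 20.1% had the smallest width in the list, 139 bp, against 3.59% of H3K9ac peaks in sites with both marks. The class of H3K9ac alone thus consists mainly of weak, narrow calls, and how far it reflects the calling threshold was not tested.

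**Figure D2:**
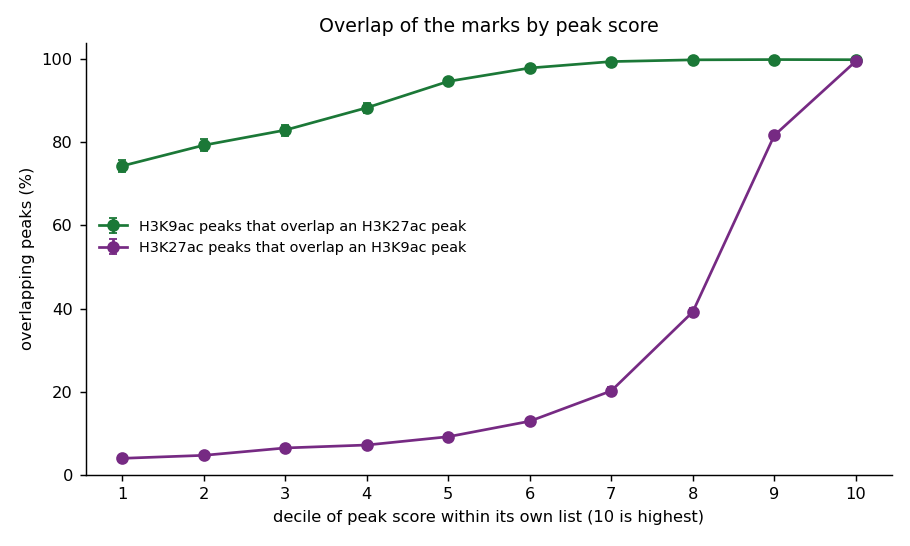
Share of H3K9ac peaks that overlap an H3K27ac peak, and of H3K27ac peaks that overlap an H3K9ac peak (%), by decile of peak score within each list, with 95% Wilson intervals that are mostly smaller than the dots. H3K9ac stays between 74.3 and 99.9%, while H3K27ac reaches 39.2% in decile 8 and 99.5% in decile 10.

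The widest sites with both marks spanned several kilobases. The widest, 8750 bp at chr5:123135377-123144126 (GRCm38), spanned Rhof, a small GTPase, and Setd1b, a histone H3 methyltransferase, and joined 7 H3K9ac peaks under 1 H3K27ac peak. Next were sites of 8312 bp at Erf, an ETS repressor, with 7 H3K9ac peaks and 1 H3K27ac peak, and of 8227 bp at the microRNA gene Mir3089, with 8 H3K9ac peaks and 1 H3K27ac peak. Others in the 10 widest covered Nfic, a nuclear factor I protein (7214 bp), the long noncoding RNA Malat1 (6735 bp), Ppp1r9b, which encodes the dendritic spine protein spinophilin (6618 bp), and Spry2, an inhibitor of growth factor signalling (6533 bp). A site of 6271 bp overlapped no gene and lay 63123 bp from its nearest gene end, that of Ppara, a nuclear receptor. The site at Nfic held a single peak of each mark, and the others in the 10 held 2 to 8 H3K9ac peaks and 1 or 2 H3K27ac peaks.

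H3K27ac alone also formed wide domains. The widest were 4475 bp inside Nfix, another nuclear factor I gene, 4340 bp inside Lhpp, a phosphatase, 4248 bp beside Josd2, a deubiquitinase, and 4146 bp inside Gse1, a component of a histone deacetylase complex. Grk2, the kinase that desensitises G protein-coupled receptors (3917 bp), Kif21b, a neuronal kinesin (3069 bp), and Ppp2r2c, a brain subunit of phosphatase 2A (2997 bp), were also in the 10 widest. The widest H3K9ac-alone site measured 876 bp, inside Fam91a1, which has a role in vesicle tethering. The others in its 10 widest were 556 to 768 bp and lay in or at Cdc42bpa, Zfp207, Nup93, Ints9, Il33, Sfpq, Trp53rka, Ppp2r5a and Plekha3.

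Genes with the largest numbers of H3K27ac-alone sites inside them were long; those named here were chosen after their values were seen. Gse1 (352.9 kb) held 217 H3K27ac-alone sites and no H3K9ac-alone site, beside 26 with both marks. Dscaml1, a cell adhesion molecule of neurons, held 1 site with H3K9ac alone, 3 with both marks and 167 with H3K27ac alone. Zbtb16, a zinc finger transcription factor of 184.4 kb, held none with H3K9ac alone, 7 with both marks and 130 with H3K27ac alone. Rbfox3, which encodes the neuronal marker NeuN, held 1, 5 and 107, and Gnao1, a G protein subunit abundant in brain, held 0, 7 and 99, in that order. In all, 1157 genes held at least 10 H3K27ac-alone sites, whereas 25 genes held at least 3 H3K9ac-alone sites.

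Around transcription start sites both marks lay on either side of a dip just before the start. Start sites with strand were available for 17491 of the 21883 protein-coding genes, 21262 starts in all, with none on chromosome 18. Upstream, H3K9ac covered at most 29.4% of starts, at -275 bp, and H3K27ac 41.0%, at -250 bp. Downstream, H3K9ac reached 48.7% at +200 bp and H3K27ac 56.1% at +175 bp. At -75 bp, H3K9ac coverage was 19.3% and H3K27ac coverage 32.5%. The ratio of H3K9ac to H3K27ac coverage was 0.71 at -500 bp, 0.89 at +500 bp and 0.48 at +2000 bp.

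The 2 marks were thus closest in extent downstream of the start. At the 12123 starts with both marks, the 2 kb upstream held a median of 318 bp under H3K9ac and 494 bp under H3K27ac, and the 2 kb downstream 736 and 825 bp. H3K9ac covered more bases than H3K27ac on the upstream side at 18.1% of these starts and on the downstream side at 32.7%. No H3K9ac base was found upstream at 20.7% of them, and no H3K27ac base at 7.17%.

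**Figure D3:**
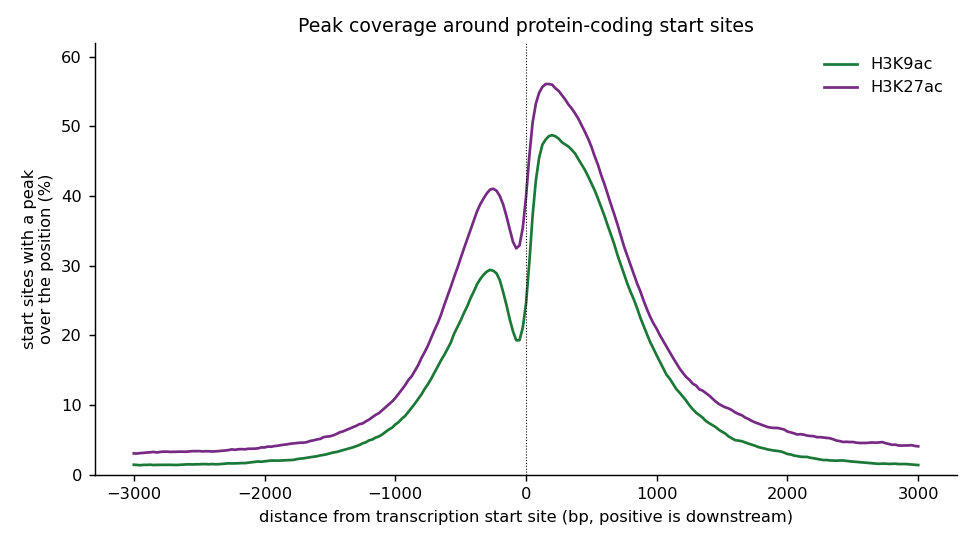
Share of 21262 protein-coding start sites with a peak of H3K9ac or H3K27ac over each position (%), in 25 bp steps from 3 kb upstream to 3 kb downstream. Both curves have an upstream and a higher downstream maximum, and the gap between them is narrowest, relative to their height, on the downstream shoulder.

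H3K9ac-alone sites lay close to H3K27ac, and near starts they lay on the downstream side more often than upstream. Of the 2505 H3K9ac-alone sites on chromosomes with start sites, 704 (28.1%, interval 26.4 to 29.9%) had their midpoint 1 to 3 kb downstream of the nearest start, and 82 (3.27%) 1 to 3 kb upstream. The downstream share was 5.78% for sites with both marks and 4.82% for H3K27ac alone. The start itself carried both marks in 691 of the 704 cases, and a site with both marks lay within 500 bp in 68.9% and within 1 kb in 88.6%. The 704 sites belonged to 650 genes. The same class in the other conditions had 25.5% of its sites in this zone in ethanol-treated knockdown mice, 25.3% in untreated knockdown mice and 24.2% in untreated control mice.

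The highest-scoring of these downstream sites, chosen after their values were seen, was at Egln1, the prolyl hydroxylase that senses oxygen. It measured 231 bp (chr8:124947329-124947559), centred 1810 bp downstream of the start and 96 bp from a site with both marks. Pa2g4, a growth regulator, Sesn1, a stress-induced inhibitor of TOR signalling, and Btg1, an antiproliferative factor, followed at 1091, 1362 and 2930 bp downstream. Hhip, an antagonist of hedgehog ligands, Usp38, a deubiquitinase, Fbxw7, the substrate receptor of a ubiquitin ligase, Erbb4, a neuregulin receptor, Dcun1d4 and the splicing factor Sfpq completed the first 10. Their gaps to the nearest site with both marks were 55 to 976 bp. Over all H3K9ac-alone sites the median gap to the nearest H3K27ac peak was 301.5 bp, while H3K27ac-alone sites lay a median of 13242 bp from the nearest H3K9ac peak.

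By gene, both marks together were far more frequent than a single mark. Of 21883 protein-coding genes, 60 (0.274%) had H3K9ac and no H3K27ac within 1 kb of an end, 12006 (54.9%) had both, 1429 (6.53%) had H3K27ac and no H3K9ac, and 8388 had neither. With the H3K27ac list shortened by score to the length of the H3K9ac list, 446 genes were H3K9ac-only, 11620 had both and 493 were H3K27ac-only. Within 2 kb of the ends, 37 of the 60 H3K9ac-only genes had no H3K27ac base, and 1198 of the 1429 H3K27ac-only genes had no H3K9ac base. The other 23 and 231 genes owed their class to where the 1 kb window ended. Acot4, a peroxisomal thioesterase, had the highest-scoring H3K9ac-only peak but held 663 bp of H3K9ac and 777 bp of H3K27ac within 2 kb. Gckr, the regulator of glucokinase, held 1026 and 964 bp, and the predicted genes Gm5373 and Gm38523 as well as Lratd2 and Tmem79 also held both marks within 2 kb.

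The H3K9ac-only genes with no H3K27ac within 2 kb had small peaks. Psd4 had 1 of 216 bp across its start (chr2:24367502-24367717), Ube2t 227 bp, Wnt6, a secreted Wnt ligand, 265 bp, and Pkn3, a protein kinase, 316 bp in all. H2-Q2, a class I histocompatibility gene with close paralogs among which reads may be split, had 197 bp, and Cdc25c, a phosphatase that starts mitosis, 279 bp. In untreated control mice, Ube2t and Pkn3 carried both marks and Psd4 and Wnt6 neither. Only 2 of the 60 genes were H3K9ac-only in all 4 conditions, Bub1b, a kinase of the mitotic checkpoint, and Pclaf, a partner of the replication clamp PCNA.

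Most of the H3K27ac-only genes with the highest scores had H3K9ac just outside the window. Of the 12 named by score, 11 held H3K9ac within 2 kb of an end. Among them were Arnt2, a neuronal transcription factor (897 bp of H3K9ac, 1526 bp of H3K27ac), Chrd, the bone morphogenetic protein antagonist chordin (926 and 1409 bp), Pxdn, a matrix peroxidase (904 and 2035 bp), and Grik2, a kainate-type glutamate receptor subunit (779 and 1353 bp). Lmbrd1, which exports cobalamin from lysosomes, Gzf1 and Zfp451, both zinc finger proteins, Susd1, Ss18, Clic3 and 4930453N24Rik were the others. N6amt1 was the exception, with 712 bp of H3K27ac, no H3K9ac within 2 kb, and a score in percentile 98.5 of its list. In the 3 other conditions N6amt1 carried both marks.

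Covered bases within 2 kb of the gene ends give a finer measure than presence. Over all protein-coding genes the medians were 466 bp for H3K9ac and 788 bp for H3K27ac, and over the 12006 genes with both marks 1132 and 1439 bp. H3K27ac covered at least 2 times as many bases as H3K9ac at 3519 genes, which is 16.1% of all, and H3K9ac covered at least 2 times as many as H3K27ac at 79 genes (0.361%). H3K9ac covered more bases at 2595 genes (11.9%). Among the genes with both marks, 15.2% had at least 2 times more H3K27ac and 20.4% had more H3K9ac. These shares are the background for the gene lists, which were chosen with earlier results of these data known and get no test.

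Genes of protein synthesis and respiration had the most even marks. Of 32 ribosomal protein genes, 31 carried both marks, none had 2 times more H3K27ac, and 14 had more H3K9ac. The share with more H3K9ac was 11.9% of all genes and 20.4% of genes with both marks. Rps18 held 3866 bp of H3K9ac and 3316 bp of H3K27ac, Rps9 1897 and 1356 bp, and Rpl27, of the large subunit, 1424 and 843 bp. Among 32 respiratory chain genes, 30 carried both marks, 2 had 2 times more H3K27ac and 13 had more H3K9ac. Atp5b, the catalytic subunit of ATP synthase, held 2704 and 2502 bp, Ndufv2, a subunit of complex I, 2718 and 2453 bp, and Uqcrb, of complex III, 1342 and 948 bp. Averaged over each list, the ratio of H3K9ac- to H3K27ac-covered bases was 0.93 for ribosomal and 0.90 for respiratory genes, against 0.72 over all genes.

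With the whole H3K27ac list, markers of oligodendrocytes and astrocytes stood towards the other end. Among 20 oligodendrocyte lineage markers 12 had 2 times more H3K27ac, against 16.1% of all genes, and none had more H3K9ac. Sox10, the transcription factor that specifies the lineage, held 1003 bp of H3K9ac and 4211 bp of H3K27ac, Mag, a myelin adhesion protein, 642 and 2701 bp, and Mog, another myelin protein, 156 and 969 bp. Gpr17 and Ermn carried H3K27ac without H3K9ac within 1 kb of their ends, and Pdgfra and Opalin were among those with neither. Within 2 kb Ermn held 135 bp of H3K9ac beside 941 bp of H3K27ac. Of 20 astrocyte markers 9 had 2 times more H3K27ac. Gfap, the intermediate filament of astrocytes, had no H3K9ac and 2278 bp of H3K27ac, Apoe, the lipid carrier, 12 and 2701 bp, and Clu, a secreted chaperone, 454 and 1982 bp. In contrast Slc1a3, a glutamate transporter, held 1240 and 1340 bp, and Glul, glutamine synthetase, 2212 and 2636 bp. The ratio of mean covered bases was 0.42 for oligodendrocyte and 0.44 for astrocyte markers. A low ratio was not particular to these lists. Among lists with few marks it was 0.14 for ependymal and choroid plexus markers, 0.31 for genes of other tissues and 0.45 for microglia markers. It was 0.47 for developmental factors of other lineages, 0.52 for endothelial and mural markers, 0.54 for inhibitory neuron markers and 0.61 for Hox genes.

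Of 20 excitatory neuron markers 16 had more H3K27ac-covered bases and 1 had more H3K9ac. The share with more H3K9ac was 11.9% of all genes and 20.4% of genes with both marks. In this list 14 carried both marks, and 9 had 2 times more H3K27ac, against 16.1% of all genes. The latter count was 3 in each of the 3 other conditions, against 13.2% of all genes in ethanol-treated knockdown, 12.3% in untreated knockdown and 7.70% in untreated control mice. Slc17a7, the vesicular glutamate transporter of hippocampal neurons, held 1094 bp of H3K9ac and 3761 bp of H3K27ac, Camk2a, a synaptic kinase, 1128 and 2985 bp, and Prox1, a marker of dentate granule cells, 2192 and 3397 bp. Neurod6, Tbr1 and Fezf2 carried H3K27ac and no H3K9ac within 1 kb of their ends, and Slc17a6 and Mef2c were among those with neither. Within 2 kb Tbr1 held 578 bp of H3K9ac beside 2436 bp of H3K27ac. Genes of general use such as Ywhaz, Cox5a, Cox7a2 and Brd3 were also at 0 for both marks, so a 0 at the annotated gene ends does not show that a gene lacks acetylation elsewhere. All 29 presynaptic release genes carried both marks and 8 had 2 times more H3K27ac, against 15.2% of all genes with both marks. Syn1 (synapsin) held 307 and 952 bp, Rab3a, a vesicle GTPase, 1530 and 4081 bp, and Pclo (piccolo) 1215 and 1249 bp.

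Glutamate receptor and postsynaptic genes carried both marks in 26 of 30 cases, and 9 had 2 times more H3K27ac. Over all genes 54.9% carried both marks, 16.1% had 2 times more H3K27ac and 11.9% had more H3K9ac. Grin1, the obligate subunit of NMDA receptors, held 1141 bp of H3K9ac and 3963 bp of H3K27ac, Grik5, a kainate receptor subunit, 1205 and 4621 bp, and Dlg2, a scaffold, 1280 and 1366 bp. Of 15 GABA receptor genes 13 carried both marks, 2 (13.3%) had 2 times more H3K27ac and 3 had more H3K9ac. Gabrd, of extrasynaptic receptors, held 218 and 1616 bp, and Gabra2 1302 and 1855 bp. Gabra4 and Gabrb1 share the same peaks and are not separate observations. Among 31 voltage-gated channel genes 24 carried both marks and 7 (22.6%) had 2 times more H3K27ac, among them Cacna1e, a calcium channel, with 390 and 2005 bp. Scn1a, a sodium channel of inhibitory neurons, carried 170 bp of H3K9ac and no H3K27ac.

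Immediate early genes were the list with the most H3K27ac. Of these 24 genes, which neurons induce on activity, 21 carried both marks, 9 had 2 times more H3K27ac and 2 had more H3K9ac. The shares over all genes were 54.9%, 16.1% and 11.9% in the same order. Mean coverage was 1602 bp for H3K9ac and 2563 bp for H3K27ac, against 671 and 935 bp over all genes. Arc, which regulates synaptic receptors, held 2116 and 5125 bp, Junb 2916 and 4614 bp, Fos 1606 and 2514 bp, and Egr1 2000 and 3170 bp. Homer1 held 2328 and 1917 bp and Ier5 1735 and 1607 bp. Bdnf, the neurotrophin, held 105 and 1229 bp and carried H3K27ac without H3K9ac at its ends, although its many internal promoters lie outside these windows. Egr2 carried 148 bp of H3K9ac and 215 bp of H3K27ac within 2 kb and H3K9ac alone within 1 kb.

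Clock genes had both marks in 18 of 20 cases, and 6 had 2 times more H3K27ac. Over all genes these shares were 54.9% and 16.1%, and 11.9% had more H3K9ac. Nr1d1, a repressor of the clock, held 1751 bp of H3K9ac and 4953 bp of H3K27ac, Dbp, a clock output factor, 2607 and 5300 bp, and Per1 1257 and 2656 bp. Among 32 writers, erasers and readers of histone acetylation 27 carried both marks, 3 had 2 times more H3K27ac and 6 had more H3K9ac. Ep300 held 2809 and 2522 bp, Crebbp 1297 and 1796 bp, Kat2a 1189 and 2142 bp, and Hdac11, a deacetylase, 860 and 2950 bp. Hdac6 and Hdac7 carried H3K27ac and no H3K9ac. Of 23 genes of acetyl-CoA, ethanol and acetate metabolism 17 carried both marks and 6 neither, among these 6 the alcohol dehydrogenase genes Adh1, Adh4 and Adh5. Acss2 held 981 and 1619 bp, Acly, the citrate-cleaving source of acetyl-CoA, 1265 and 1687 bp, and Aldh2, which oxidises acetaldehyde, 859 and 1902 bp.

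Markers of microglia, inhibitory neurons, vessels and ependyma, and genes of other tissues, showed few marks. Over all genes 54.9% carried both marks and 38.3% neither. Among 20 microglia and macrophage markers 3 carried both marks and 14 neither, with Cx3cr1, Tmem119 and Trem2 at 0 for both. Among 20 inhibitory neuron markers 3 carried both, and the defining genes Gad2, Slc32a1, Sst and Vip had no covered base, while Gad1 held 433 and 867 bp. Endothelial and mural markers had both marks in 6 of 20, and ependymal and choroid plexus markers in 4 of 15. Foxj1, the master regulator of motile cilia, held 482 bp of H3K9ac and 4883 bp of H3K27ac, and the ratio of mean covered bases of the list was 0.14. This ratio was 0.37 in ethanol-treated knockdown, 0.34 in untreated knockdown and 0.40 in untreated control mice. In bulk tissue, fewer cells of a type and less acetylation per cell cannot be told apart. Of 27 Hox genes 26 carried neither mark, of 30 developmental factors of other lineages 27, and of 24 genes of other tissues 18. Interferon and antiviral genes had both marks in 11 of 20, cell cycle genes in 15 of 20, and housekeeping genes in 19 of 20.

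Fewer genes had 2 times more H3K27ac when the H3K27ac list was shortened to the 31042 highest-scoring peaks, the length of the H3K9ac list. Genes with 2 times more H3K27ac were then 7.43% of all, and the count was 3 of 20 for oligodendrocyte markers, 4 of 20 for astrocyte markers, 5 of 20 for excitatory neuron markers and 0 of 32 for ribosomal genes. The ratio of mean covered bases became 0.70 for oligodendrocyte, 0.69 for astrocyte, 0.77 for excitatory neuron and 1.03 for ribosomal genes, against 0.84 for all genes. Over the 23 lists it then ran from 0.17 for ependymal and choroid plexus markers to 1.13 for Hox genes. With the whole list it ran from 0.14 for ependymal and choroid plexus markers to 0.93 for ribosomal genes. The Hox value does not describe the list, since Hoxa9 (322 bp) was the only Hox gene with an H3K9ac-covered base. Close to oligodendrocyte and astrocyte markers were then inhibitory neuron markers at 0.68, clock genes at 0.71, glutamate receptor genes at 0.71 and presynaptic genes at 0.72. Microglia markers were at 0.91, a value that rests on few genes, as 14 of the 20 had neither mark at an end. Of the other lists with few marks, genes of other tissues were at 0.50, lower than both glial lists. Developmental factors of other lineages were at 0.70, and endothelial and mural markers at 0.78. With the peaks of each list at or above its median score instead, genes with 2 times more H3K27ac were 4566 of all 21883 genes, the background for the counts that follow. They were 15 of 24 immediate early genes, 15 of 31 voltage-gated channel genes, 8 of 15 GABA receptor genes, 8 of 32 genes of histone acetylation and 3 of 32 ribosomal genes. The counts then were 11 of 20 for cell cycle genes, 11 of 20 for interferon genes, 4 of 23 for acetyl-CoA metabolism and 3 of 20 for microglia markers. In the other conditions the ratio over all genes was 0.78 in ethanol-treated knockdown, 0.81 in untreated knockdown and 0.91 in untreated control mice. Oligodendrocyte markers gave 0.59, 0.51 and 0.74 there, and ribosomal genes 1.04, 1.09 and 1.08. Oligodendrocyte markers with 2 times more H3K27ac were 10, 8 and 4 of 20 there, against 13.2%, 12.3% and 7.70% of all genes.

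**Figure D4:**
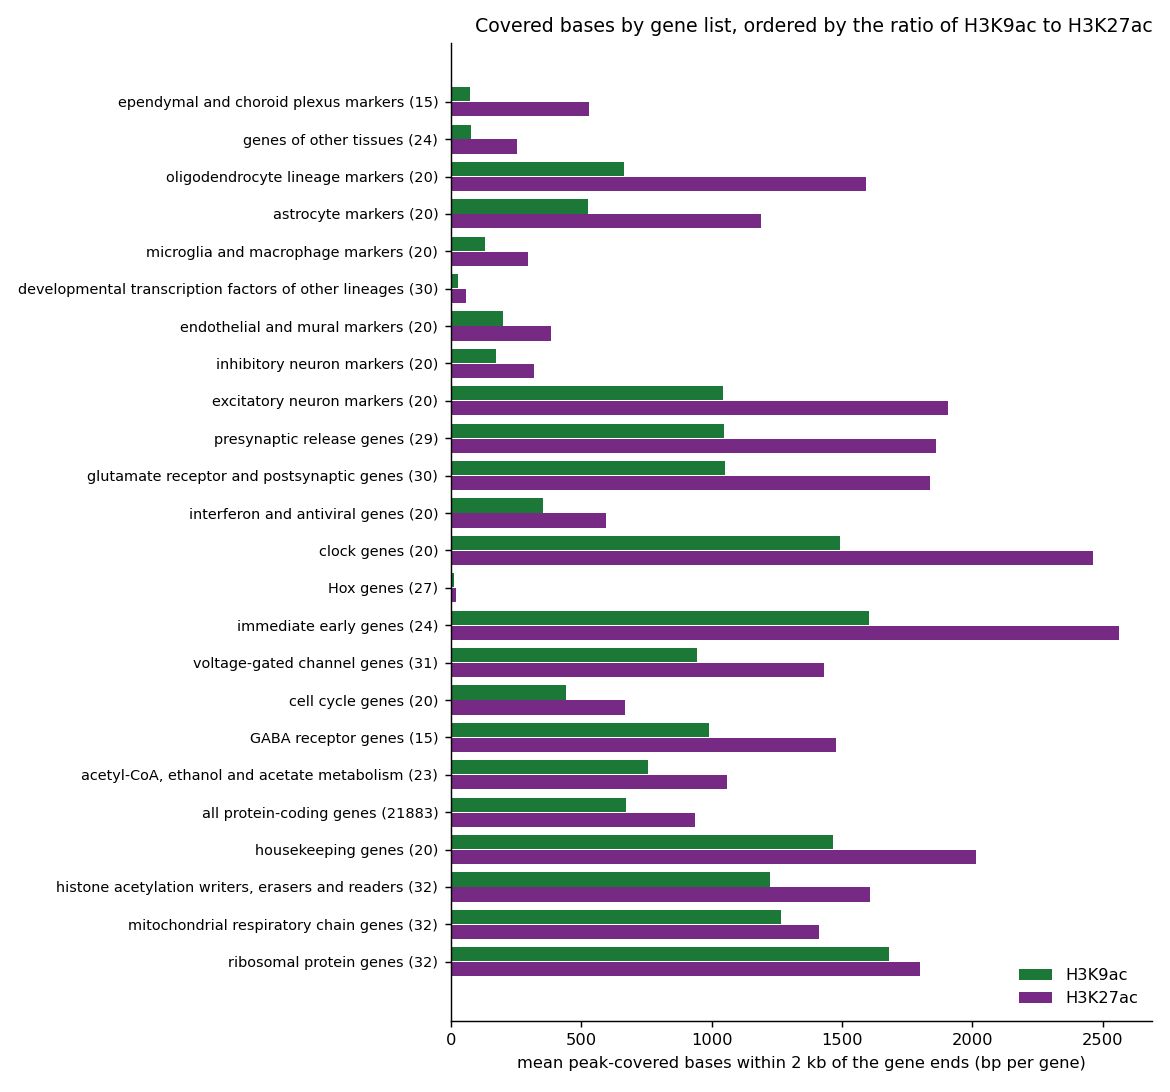
Mean bases under H3K9ac and H3K27ac peaks within 2 kb of the gene ends (bp per gene) for 23 gene lists and all protein-coding genes, ordered by the ratio of H3K9ac to H3K27ac, with the number of genes in brackets. The ratio is 0.14 at the top (ependymal and choroid plexus markers) and 0.93 at the bottom (ribosomal protein genes), with all genes at 0.72.

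Single genes with the largest surplus of either mark differed in size of the gap. The largest H3K9ac surpluses, 1196 to 1415 bp, were at 6 predicted genes in a row, Gm40369, Gm40367, Gm40365, Gm36327, Gm40364 and Gm40363, between positions 47652901 and 47738326 of chromosome 6 (GRCm38). Except for Gm40369, the windows of neighbours among them overlap. All 6 may share near-identical sequence, so they are uncertain and count as 1 observation. Next were 2700097O09Rik and Srp54a, neighbours that share a promoter (surplus 1042 and 1013 bp), Nmnat1, an enzyme of NAD synthesis, with 1894 bp of H3K9ac and 1020 bp of H3K27ac, and Rsrc2 with 1813 and 939 bp. The largest H3K27ac surpluses were bigger, with differences (H3K9ac minus H3K27ac) of -5505 to -4179 bp. Josd2 held 1106 and 6611 bp, Klf16, a Krüppel-like factor, 1693 and 6335 bp, Plin4, a lipid droplet protein, 794 and 5388 bp, Rcor2, a neural corepressor, 1038 and 5593 bp, and Rtn4r, the Nogo receptor, 1636 and 5922 bp. Smarcd1, a chromatin remodelling subunit, Smim1, Fuz, Gm10277 and Foxj1 completed the 10. All 10 also had more H3K27ac- than H3K9ac-covered bases in each of the 3 other conditions. The H3K9ac-surplus genes had more H3K9ac there too, except Nmnat1, which held 1229 bp of H3K9ac and 1728 bp of H3K27ac in untreated control mice.

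Promoter sequence differed between genes with both marks and those with a single mark. The median number of CpG in the 300-base window was 7 at the 43 H3K9ac-only starts, 22 at the 12123 starts with both marks, 8 at the 1249 H3K27ac-only starts and 3 at the 7847 starts with neither. Median GC content was 53.0%, 62.3%, 56.7% and 47.0% in the same order. Psd4 and Ube2t, printed above, have more CpG than the median H3K9ac-only start. The GC box GGGCGG, searched like the other motifs on both strands, occurred in 39.5% of H3K9ac-only, 68.0% of both-mark and 44.0% of H3K27ac-only windows, against 46.2% of all. The ETS letters CCGGAAGT occurred in 0 of 43 (interval up to 8.20%), 8.39% and 0.881%, against 5.15% of all, and the NRF1 letters GCATGCGC in 0 of 43, 5.51% and 1.44%, against 3.51%. The TATA box TATAAA occurred in 14.0%, 5.95% and 9.61%, against 12.6%, and the AP-1 letters TGANTCA in 6.98%, 3.99% and 8.33%, against 6.99%. The CREB letters TGACGTCA occurred in 2.33%, 3.30% and 1.60%, against 2.23%. Windows with neither mark held TATAAA in 23.3% and TGANTCA in 11.4%, which raises the shares of all. Starts with both marks thus held the GC box, ETS, NRF1 and CREB letters more often, and TATA and AP-1 letters less often, than H3K27ac-only starts. The more frequent letters all contain CG and the less frequent do not. The part of CpG content in this split was not tested. Motifs were counted separately and may overlap each other.

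Noncoding genes and the X chromosome differed from the general pattern. Of 408 tRNA genes 8 had H3K9ac only at an end, 176 (43.1%) both marks and 30 H3K27ac only, and of 12727 long noncoding RNA genes 37, 2243 (17.6%) and 1447 did. On the X chromosome, 4.11% of the 1023 sites had H3K9ac alone, 47.1% both marks (interval 44.1 to 50.2%) and 48.8% H3K27ac alone. On the 19 autosomes those shares were 2.42 to 4.48%, 21.9 to 30.6% and 64.9 to 75.7%. Per 100 protein-coding genes the X held 49.9 sites with both marks and 51.7 with H3K27ac alone, against 84.1 to 138 and 211 to 442 on autosomes. Male cells have a single X, so its chromatin is sampled at a lower copy number than that of an autosome, and the part of this in the lower counts was not tested.

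Single-mark sites far from genes were ranked by score, although distal H3K9ac, like H3K9ac in general, mostly coincided with H3K27ac. Over 50 kb from gene ends lay 240 sites with H3K9ac alone, 1318 with both marks and 13620 with H3K27ac alone. These were 9.28% of all 2586 H3K9ac-alone sites and 5.73% of all 22998 sites with both marks. H3K9ac thus coincided with H3K27ac less often there than over all sites. The highest-scoring H3K9ac-alone sites over 10 kb from every protein-coding gene were 2 at chr2:98663713-98664091 and chr2:98664971-98665259, present as H3K9ac alone in all 4 conditions, and 2 near the start of the assembly of chromosome 9 (chr9:3004960-3005335 and chr9:3026181-3026494). These stretches of the mouse assembly are known for satellite repeats that collect reads from many copies, so these peaks are uncertain. A site of 238 bp that overlaps the tRNA gene n-TStga1 (chr13:23518218-23518455), 12589 bp from the histone gene H4c8, was H3K9ac alone in all 4 conditions. The highest-scoring H3K27ac-alone site this far out measured 444 bp and lay 15824 bp from Dnmt3a, a DNA methyltransferase. Next were a site of 894 bp in the noncoding RNA gene 5031425F14Rik, 117847 bp from Prex1, an activator of the GTPase Rac, and sites near Hnrnpu, Frmd8, Cstad, Zmiz1, Klf13, Arid1b and Mctp2. Of these 10 H3K27ac-alone sites, the 1 near Klf13 had H3K27ac alone in all 4 conditions, and the other 9 had both marks in at least 1 of the other 3.

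Across the other conditions the classes differed in how often the same site was found again. Of the H3K9ac-alone sites, 86 (3.33%) held H3K9ac alone in all 4 conditions, against 19787 (86.0%) of sites with both marks and 16844 (27.4%) of H3K27ac-alone sites that kept their class. H3K9ac was found again at 48.8% of H3K9ac-alone sites in ethanol-treated knockdown mice, 44.1% in untreated knockdown mice and 45.2% in untreated control mice. H3K27ac was found at 52.2%, 43.3% and 39.8% of them. Both marks were present in at least 1 other condition at 45.7% of H3K9ac-alone and 23.5% of H3K27ac-alone sites. No peak of either mark was found in the 3 other conditions at 465 of the 2586 H3K9ac-alone sites, 54 of the 22998 both-mark sites and 8090 of the 61576 H3K27ac-alone sites. Narrow sites have fewer bases that a peak can overlap, and the part of width in these shares was not tested.

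Genes were compared in the same way. Of the 12006 genes with both marks, 11719 carried both in all 4 conditions. Of the 60 H3K9ac-only genes, 20 carried both marks in ethanol-treated knockdown mice, 15 in untreated knockdown mice and 20 in untreated control mice. Of the 1429 H3K27ac-only genes, 716, 571 and 602 did, and 221 were H3K27ac-only throughout.

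**Figure D5:**
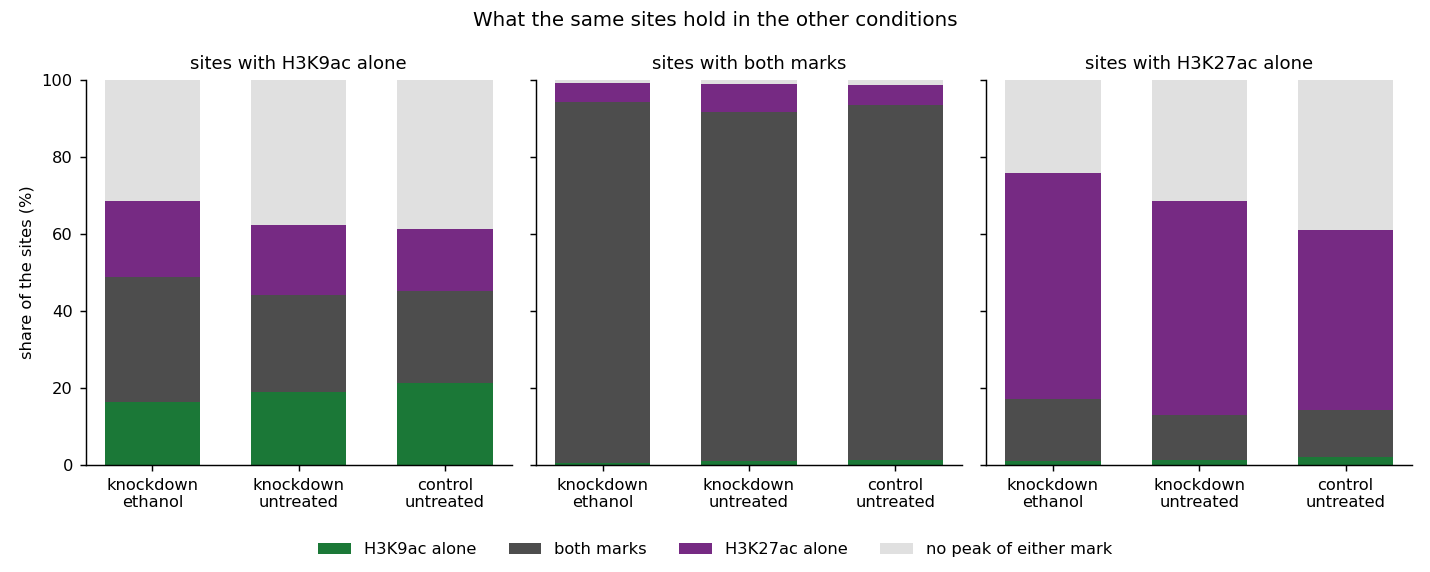
Marks found in each of the 3 other conditions at the sites of each class of ethanol-treated control mice (% of sites). Sites with both marks held both again in 90.6 to 93.5%, whereas H3K9ac-alone sites held H3K9ac alone in 16.3 to 21.4%.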

How the data were processed

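ChIP-seq of H3K9ac and H3K27ac with matched inputs was deposited as peak lists, 1 per mark and condition, for 36 samples in groups of 3 replicates. List names in the labels set ChIP against input with an FDR of 0.001. MACS2, bedtools, STAR 2.5.2a and bcl2fastq, with no role stated, and the build GRCm38 (mm10) come from the submitters' processing notes. The labels do not say how the 3 replicates entered a list. The deposited lists have 6 columns and no header, and the authors' score in column 5 was read as a −log10 q-value, from its minimum of 3.02 for H3K9ac and 3.00 for H3K27ac. It was used only to rank peaks within a list. The labels give no read numbers, so depth is unknown.

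Peaks on the 19 autosomes, X and Y were used, and 80 H3K9ac and 196 H3K27ac peaks elsewhere were left out. Overlap meant at least 1 shared base. Genes were the 21883 protein-coding genes of RefSeq GRCm38.p6; that table gives no strand, so both gene ends were used, with a window of 1 kb for presence and of 2 kb for covered bases, which is shorter where a gene is short. Strand-aware results used 21262 RefSeq start sites, 79.9% of the genes. Of 546 entries in 23 gene lists 2 had no match. Shares have 95% Wilson intervals. Python 3.11.15, numpy 2.4.6, pandas 2.3.3 and scipy 1.17.1 were used, and the overlap functions were tested on simulated peaks. The members, gene lists and rules were chosen with earlier results of these data known. Named genes are list members, the 12 top-scoring genes per single mark, the 10 widest sites per class, the 10 top-scoring single-mark sites per mark over 10 kb from genes, and the 10 largest surpluses per mark; any other is stated to be chosen after its values were seen. Some list members are not reported here by name. The letters searched for NRF1 were shortened after a longer form had been searched and its values seen.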

Additional observations from a re-analysis of the deposited data

Results flagged for a closer look

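Peaks outside the assembled chromosomes were left out of every comparison. There were 80 such H3K9ac peaks and 196 such H3K27ac peaks on unplaced and unlocalised sequences, which formed 4 sites with H3K9ac alone, 56 with both marks and 125 with H3K27ac alone. No input track was analysed here, and the part of repeated sequence in these peaks was not tested.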

How the results depend on the processing

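Of 106 values recomputed under 9 alternatives, 33 stayed within the counting interval or within 1.5 times the count, and 73 moved. In all 10 settings, the reported one included, sites with both marks were the widest and closest to gene ends, H3K9ac-alone sites the narrowest, and H3K27ac-alone sites the farthest from gene ends. Widths could not change in the window, gene-type and starts-only settings, which keep the same sites. Distances could not change in the window settings, or with unplaced sequences added, since sites there were given no distance. Values below follow the order H3K9ac alone, both marks, H3K27ac alone. Requiring an overlap of 0.5 of the shorter peak, 88.5% of H3K9ac and 27.3% of H3K27ac peaks overlapped, the shares at gene ends were 25.1%, 60.1% and 9.60%, distances 2002, 640 and 15221 bp, and the width of H3K9ac-alone sites 185 bp. Joining peaks up to 500 bp apart gave 96.9% and 36.0% overlap, 859 H3K9ac-alone and 35265 H3K27ac-alone sites, shares of 8.50%, 58.4% and 5.99%, widths of 168, 1447 and 250 bp, and distances of 6590, 637 and 19513 bp. With peaks at or above the median score, overlap was 98.5% and 31.4%, sites were 236, 13972 and 32080, shares 34.7%, 72.8% and 17.9%, widths 257.5, 991 and 344 bp, distances 1712, 515 and 10647.5 bp, and 19 genes were H3K9ac-only and 2561 H3K27ac-only. With the H3K27ac list shortened to the length of the H3K9ac list, overlap was 80.2% and 64.9%, sites with a single mark 6141 and 10908, shares 27.6%, 64.2% and 12.2%, widths 195, 876.5 and 402 bp, distances of sites with both marks 577 bp and of H3K27ac-alone sites 13664 bp, and single-mark genes 446 and 493. A 500 bp window gave shares of 9.71%, 40.5% and 5.55%, and a 2 kb window 47.6%, 68.8% and 15.5%. With genes of every type, shares were 27.6%, 65.7% and 14.8%, distances 1755, 552 and 7357 bp, and single-mark genes 133 and 3430. With starts only, shares were 19.6%, 56.9% and 6.43%, distances of single-mark sites 2838 and 27454 bp, and single-mark genes 34 and 877. The cause of these moves was not tested beyond what each setting changes by construction. Added after seeing the data, the share of H3K9ac-alone sites 1 to 3 kb downstream of a start was 14.7 to 26.4% under the first 4 settings, against 28.1% as reported. Also added later, the count of list members with 2 times more H3K27ac moved by over 1.5 times in 9 of 23 lists with peaks at or above the median score, 19 with the shortened H3K27ac list, 6 within 1 kb and 5 within 5 kb. No paired analysis was possible because the 3 replicates of each group stand behind 1 list, and for the same reason no replicate could be left out. Unknown depth limits every count of single-mark sites.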
